A study of Caenorhabditis elegans with 4 samples.

Results

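Fatty acids are burned after they have been joined to coenzyme A. The genes described here belong by name to families with a part in that activation and the oxidation that follows. Which substrate each enzyme acts on was not checked here. In the table of read counts per gene, 37 of 19913 gene rows were taken by name: the families *acs*, *acdh*, *ech*, *cpt*, *hacd* and *kat*, together with *dhs-28* and *maoc-1*. The genes *acdh-1* and *ech-6*, which belong to propionate breakdown, were left out of the set. No row was named *daf-22* or *acox* with a whole number, so those peroxisomal genes were not analysed here. Several names of the *acs* family also had no row and were likewise not analysed. The libraries come from whole *Caenorhabditis elegans* larvae of the first stage (L1), grown at 20 degrees and synchronized by repeated bleaching. There were 2 biological replicates of N2, the wild-type strain, and 2 of *pry-1(mu38)*, which carries a nonsense allele of the Axin gene *pry-1*. Axin is a scaffold of the complex that destroys beta-catenin, and *mu38* is used as a mutation that leaves WNT signaling switched on. Each group is 1 strain, and whether the larvae had fed before collection is not stated in the sources used here.

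Acyl-CoA synthetases, the *acs* family, attach coenzyme A to free fatty acids and so make them available for storage, membranes or oxidation. Carnitine palmitoyltransferases, the *cpt* family, pass long chains into mitochondria. There an acyl-CoA dehydrogenase (*acdh*) introduces a double bond, an enoyl-CoA hydratase (*ech*) adds water, a hydroxyacyl-CoA dehydrogenase (*hacd*) oxidizes the product and a thiolase (*kat*) releases acetyl-CoA. Peroxisomes run a parallel chain on very long and unusual acyl groups; in *C. elegans* it includes *maoc-1* and *dhs-28*, which shorten the side chains of the ascaroside pheromones. In worms the intestine and the hypodermis are the main sites of fat storage, and the nuclear receptor NHR-49 is a known activator of mitochondrial oxidation genes during fasting.

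The differences that were both large and steady were those of *acdh-2*, which encodes a predicted acyl-CoA dehydrogenase, and *acs-2*, the fasting-induced mitochondrial synthetase. Both were lower in both *pry-1(mu38)* libraries than in either N2 library, *acdh-2* by 6.27-fold and *acs-2* by 2.73-fold, with little spread within a strain. Neither passed the quasi-likelihood test of edgeR over all genes, while DESeq2 and the exact test of edgeR called both. The remaining genes of the pathway were split in direction. For most of them the gap between the N2 libraries was wider than the difference between the strains, which also held for 54% of all genes tested. Of the 35 genes that could be tested, 15 had a positive and 20 a negative log2 ratio of *pry-1(mu38)* to N2 (the log2 fold change), against 48.4% and 51.6% of all 15101 genes tested. The median was -0.15, where that of all genes was -0.022.

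The libraries held from 27741375 to 33230854 counts on genes. The nonsense allele does not remove the transcript, so the level of *pry-1* does not check the labels; it was 70.5 and 61.9 CPM (counts per 1000000 reads on genes) in N2 against 118 and 108 in *pry-1(mu38)*, with library sizes scaled by edgeR's TMM method. N2 replicate 2 stood apart from the other libraries. A gap of at least 2-fold separated the N2 libraries in 13.1% of all genes tested and the *pry-1(mu38)* libraries in 2.62%, on the scale of CPM plus 0.5. Muscle and pharynx markers were high in N2 replicate 2: the summed level of *myo-2* and *tnc-2* was 969 CPM there, 332 in N2 replicate 1 and from 87.5 to 204 in *pry-1(mu38)*, and that of *unc-54*, *myo-3* and *unc-15* was 21180 CPM there and from 11297 to 11607 in the other libraries. The 5 intestine markers with a row summed to 1607 and 1831 CPM in N2 and to slightly less, 1529 and 1475 CPM, in *pry-1(mu38)*. Of 4 hypodermis markers *lin-26* had at most 0.183 CPM in any library, and the summed level ran from 95.2 to 137 CPM. The 4 neuron markers summed to 1073 and 1208 CPM in N2 and to 1126 CPM in each *pry-1(mu38)* library. Among them *rab-3* had 219 CPM in N2 replicate 2 and from 88.7 to 110 CPM in the other libraries. The 8 oocyte and eggshell markers, which should be low in larvae, summed to 8.60 and 14.1 CPM in N2 and to 20.1 and 22.6 in *pry-1(mu38)*. The 4 sperm markers summed to between 2.31 and 3.06 CPM in every library. The part of these differences in the results below was not tested. In whole animals, fewer cells of a type and less RNA per cell cannot be told apart.

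**Figure D1:**
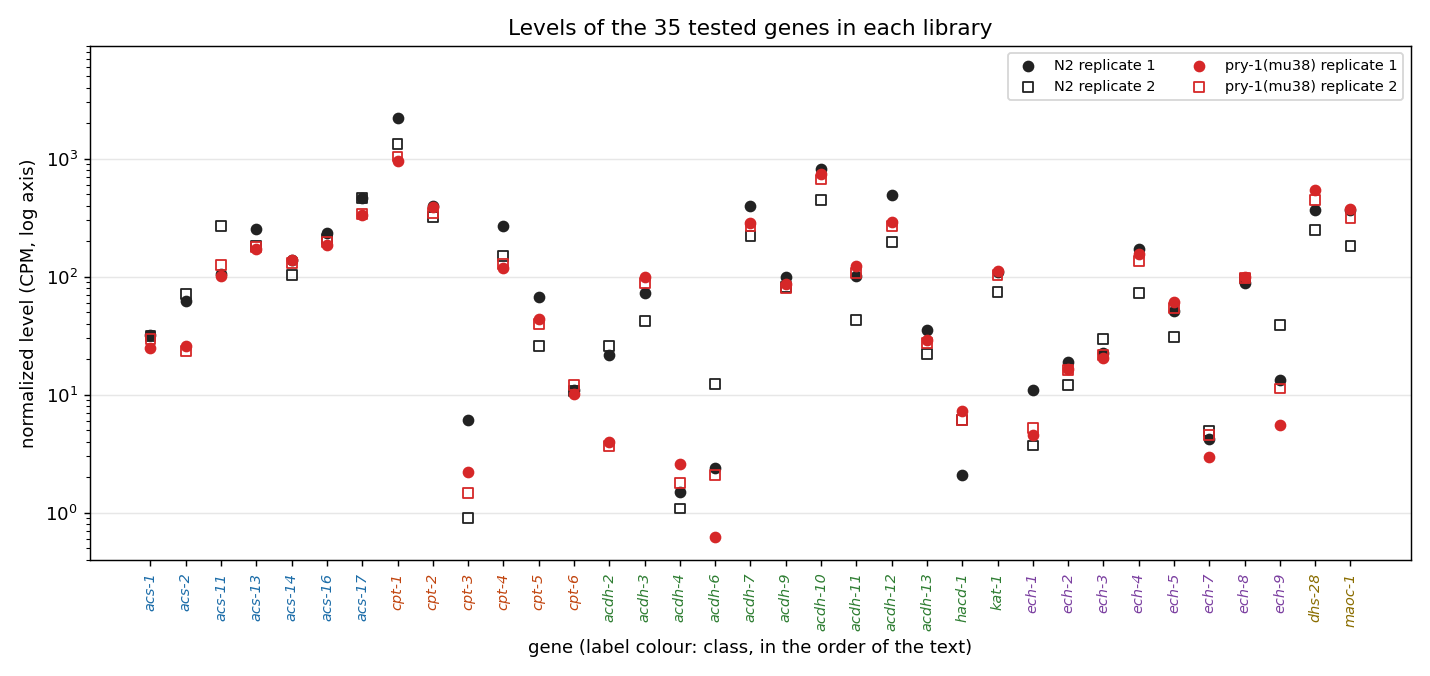
Normalized level of each of the 35 tested genes in CPM on a log axis, with 1 symbol per library (filled for replicate 1, open for replicate 2, black for N2, red for *pry-1(mu38)*) and the gene names coloured by class. The red symbols lie close together for nearly every gene, the black symbols often lie apart, and *acs-2* and *acdh-2* show both red symbols well below both black ones.

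None of the 35 genes had an adjusted p under 0.05 in the quasi-likelihood test, where 0.00662% of all genes tested did, 1 gene in all. At an unadjusted p under 0.05 there were 5 lower genes (14.3% of those tested, against 8.23% of all genes), *acdh-2*, *acs-2*, *acs-17*, *cpt-1* and *ech-9*, and 1 higher gene, *dhs-28* (2.86% against 5.93%). DESeq2, the exact test and DESeq2 after quantile normalization each called *acdh-2* and *acs-2* lower and no gene higher. Over all genes, calls made up 3.72% (1.38% higher, 2.34% lower), 1.88% (0.954% and 0.927%) and 3.64% (1.6% and 2.04%) in that order. A fit with the replicate number as a block called 3 of the 35 genes higher and 5 lower, where it called 4.46% and 11% of all genes, 15.4% together. The strains did not overlap in 18 genes, 7 with higher and 11 with lower values in *pry-1(mu38)*, which is 20.0% and 31.4%, against 29.1% and 28% of all genes (57.0% together). A fitted fall of 2-fold or more was seen in 4 genes, *acdh-2*, *acdh-6*, *ech-9* and *acs-2* (11.4% against 12.3% of all genes), and no gene had a rise of that size (3.70% of all genes; 16.0% in both directions). For a single gene the smallest two-sided p of an exact permutation test is 0.333 in a design of this size, so every p rests on the spread that is estimated across genes.

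**Figure D2:**
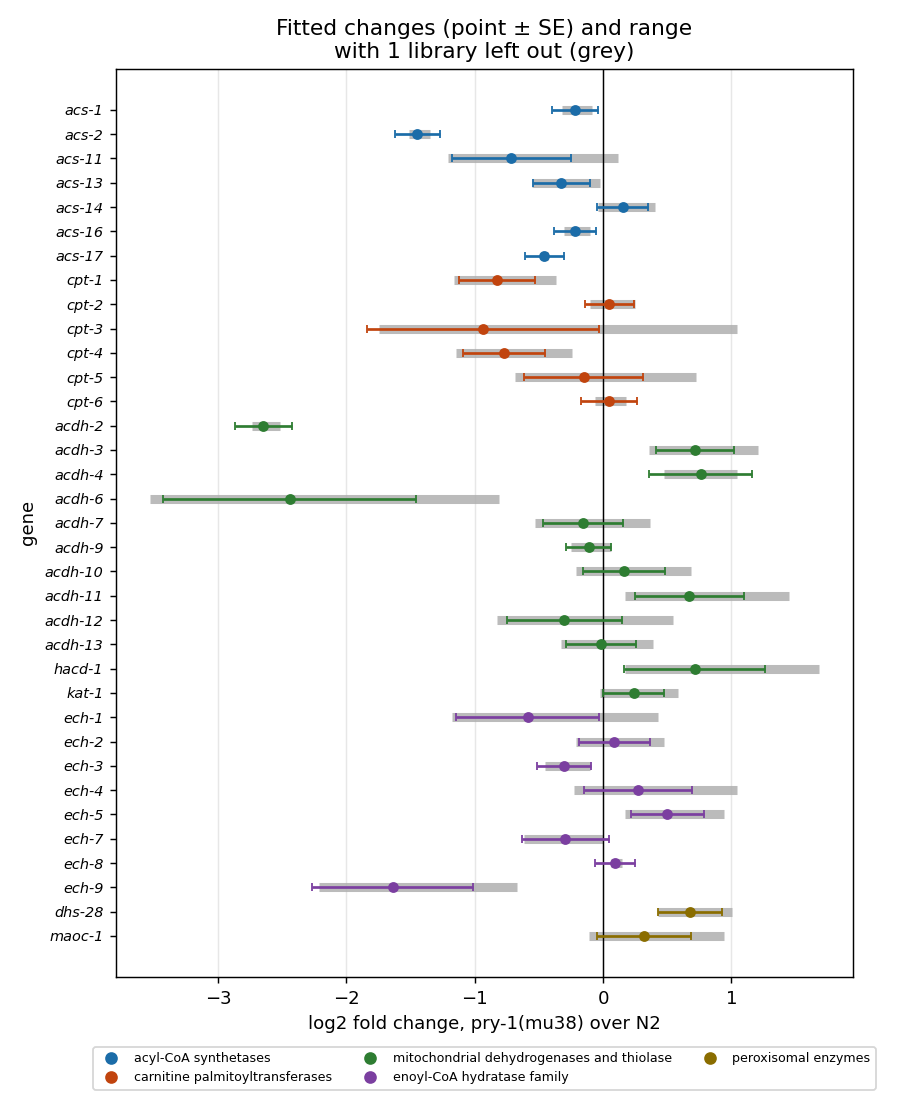
Log2 fold change of *pry-1(mu38)* over N2 for each of the 35 tested genes (points), coloured by class. Bars show 1 standard error derived from the quasi-likelihood test, and grey bands span the values with each library left out in turn. The bands of *acdh-2* (-2.74 to -2.52) and *acs-2* (-1.51 to -1.35) are narrow and far from 0, and the bands of 17 genes include values of the opposite sign.

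Of the acyl-CoA synthetases only 7 had a row under an *acs* name, so the values below do not describe the whole family. Among these 7 tested genes 6 had negative values (51.6% of all genes did), at a median log2 ratio of -0.32. In 5 of them *pry-1(mu38)* lay below N2 with no overlap (28% of all genes). The summed level of the class was 1291 and 1331 CPM in N2 against 979 and 1027 CPM in *pry-1(mu38)*. In this sum the N2 libraries were close to each other, and the strains did not overlap. Single genes differed more between the N2 libraries and in opposite directions, such as *acs-11* (104.4 and 268 CPM) and *acs-13* (256 and 181 CPM).

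The gene *acs-2* encodes the mitochondrial synthetase that fasting induces through NHR-49. N2 stood at 62.2 and 71.6 CPM, against 25.6 and 23.4 CPM for *pry-1(mu38)*. The ranges were far apart, and the gap between strains was several times the gap within either. The fitted log2 ratio was -1.45 (standard error 0.17, unadjusted p = 0.000474, adjusted p = 0.289 from the quasi-likelihood test). DESeq2 gave an adjusted p of 5.45e-06 and the exact test one of 0.000114. Without N2 replicate 2 the quasi-likelihood test gave 0.0287, with values from 0.0551 to 0.405 when any other library was left out.

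The most abundant per length of the synthetases with a row was *acs-17*, at a mean of 138 CPM per kilobase (kb) of exon. It had 463 and 465 CPM in N2 against 333 and 342 CPM in *pry-1(mu38)*. The values within each strain were nearly equal, and the log2 ratio was -0.46 (standard error 0.15, unadjusted p = 0.0306, adjusted p = 0.345), a smaller difference than that of *acs-2* but as steady, from -0.46 to -0.43 with each library left out. The exons of *acs-17* overlap those of C46F4.3 on the opposite strand over 3.77% of their length, and the library kit does not mark strand.

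In *acs-11*, by contrast, 1 library set the value. It had 104.4 and 268 CPM in N2 against 102 and 125 CPM in *pry-1(mu38)*, so that N2 replicate 1 lay among the *pry-1(mu38)* libraries and N2 replicate 2 far above them. Its log2 ratio was -0.72 (standard error 0.46, adjusted p = 0.441), but 0.11 without N2 replicate 2.

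Among the other synthetases, *acs-1*, which activates branched-chain fatty acids needed for larval growth, had 31.9 and 31.6 CPM in N2 against 25.1 and 29.6 in *pry-1(mu38)* (log2 fold change -0.22, standard error 0.18). The values of *acs-13* and *acs-16* were -0.32 and -0.22. The single positive value was that of *acs-14*, at 0.15, with overlapping strains. None of these 4 genes had an unadjusted p under 0.05.

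The carnitine palmitoyltransferases held the most abundant transcript of the set. Among its 6 genes 4 had negative and 2 positive values, at a median of -0.46 on the log2 scale. Their summed level was 2978 and 1825 CPM in N2 against 1523 and 1570 CPM in *pry-1(mu38)*, and most of it came from *cpt-1*. In all 6 genes N2 replicate 2 was below N2 replicate 1, with a median log2 difference of -0.81. Leaving out N2 replicate 2 gave a class median of -0.92, and leaving out N2 replicate 1 one of 0.17.

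*cpt-1* encodes the carnitine palmitoyltransferase I homolog of the outer mitochondrial membrane, the step that commits long chains to oxidation. Its level was 2227 and 1320 CPM in N2 against 958 and 1041 CPM in *pry-1(mu38)*. Both mutant libraries were below both N2 libraries, and the N2 libraries differed by a larger amount than the nearer pair of libraries across strains. The fitted difference was -0.83 on the log2 scale (standard error 0.30, unadjusted p = 0.0390, adjusted p = 0.345). It moved to -1.16 without N2 replicate 2 (adjusted p = 0.0283 from the quasi-likelihood test) and to -0.37 without N2 replicate 1. Where 1 library of a strain is left, the test assumes that it varies like the libraries of the other strain.

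Per length, *cpt-1* and the dehydrogenase *acdh-10* were the most abundant genes of the set, and their order differed between strains. In N2 *cpt-1* had 794 and 471 CPM per kb against 586 and 324 for *acdh-10*, and it was higher in each library. In *pry-1(mu38)* the values were 342 and 371 against 538 and 481, with *acdh-10* higher in each library.

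*cpt-4*, a further member of the family, showed the same order of libraries as *cpt-1*. It had 271 and 149 CPM in N2 against 118 and 128 CPM in *pry-1(mu38)*. Its log2 ratio of -0.77 (standard error 0.32, unadjusted p = 0.0604, adjusted p = 0.345) moved to -1.15 without N2 replicate 2 (adjusted p = 0.0287 from the quasi-likelihood test) and to -0.24 without N2 replicate 1.

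*cpt-2* encodes the homolog of carnitine palmitoyltransferase II, which works on the inner mitochondrial membrane and returns the chain to coenzyme A. Unlike *cpt-1*, it had overlapping values, 396 and 318 CPM in N2 against 391 and 347 CPM in *pry-1(mu38)*, at a log2 ratio of 0.049 (standard error 0.19). The largest absolute value of the class belonged to the scarce *cpt-3*, with 168 and 30 counts in N2 and 71 and 47 counts in *pry-1(mu38)*. Here the N2 libraries differed by 6.78-fold and enclosed both mutant libraries, and the log2 ratio of -0.93 (standard error 0.91) was 1.05 without N2 replicate 1. For *cpt-5*, with 67.5 and 26.1 CPM in N2 against 44.2 and 39.9 in *pry-1(mu38)*, the N2 libraries again enclosed the others, and *cpt-6* stayed between 10.2 and 12.1 CPM in every library.

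The genes classed as mitochondrial were split; they were placed there by family name, without a check of where each protein works. Of 14 genes for acyl-CoA dehydrogenases, the hydroxyacyl-CoA dehydrogenase and the thiolase, 12 were tested, 6 with a positive and 6 with a negative log2 fold change, at a median of 0.071. Leaving out N2 replicate 1 raised it to 0.47, and leaving out N2 replicate 2 gave -0.23. The strongly negative values were those of *acdh-2* and *acdh-6*, both of low level, while the abundant dehydrogenases had overlapping strains.

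*acdh-2* had 595 and 861 counts in N2 and 127 and 118 counts in *pry-1(mu38)*, or 21.8 and 26.0 CPM against 3.94 and 3.68. The *pry-1(mu38)* values were close to each other and far below both N2 values. Its log2 ratio of -2.65 (standard error 0.22, unadjusted p = 9.04e-05, adjusted p = 0.289) was the largest of the set in size. DESeq2 gave an adjusted p of 1.17e-14 and the exact test one of 9.49e-11. With single libraries left out, the log2 ratio ran from -2.74 (without N2 replicate 1) to -2.52 (without N2 replicate 2). The annotation of build WBcel235 places *ins-13*, an insulin-like gene, over 4.65% of its exon length on the same strand.

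The similarly large value of *acdh-6* was less steady. This dehydrogenase gene had 65 and 409 counts in N2 and 20 and 67 counts in *pry-1(mu38)*. N2 replicate 1 nearly met *pry-1(mu38)* replicate 2, at 2.38 against 2.09 CPM, and both strains held a wide gap between their libraries. A log2 ratio of -2.44 was fitted (standard error 0.98, unadjusted p = 0.0571, adjusted p = 0.345). Leaving out N2 replicate 2 gave -0.81, and leaving out *pry-1(mu38)* replicate 2 gave -3.53.

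The abundant medium-chain dehydrogenase homologs did not separate the strains. *acdh-10* had 812 and 449 CPM in N2 against 745 and 665 CPM in *pry-1(mu38)*, with a log2 ratio of 0.16 (standard error 0.32), and *acdh-7* had 397 and 219 CPM in N2 against 287 and 266 CPM in *pry-1(mu38)*. In both genes the N2 libraries enclosed the *pry-1(mu38)* libraries. The same held for *acdh-12*, a homolog of the very-long-chain dehydrogenase, at 496 and 197 CPM in N2 against 293 and 269 in *pry-1(mu38)*, whose log2 fold change of -0.30 was -0.83 without N2 replicate 2 (adjusted p = 0.0376 from the quasi-likelihood test) and 0.54 without N2 replicate 1.

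Among the dehydrogenase genes with positive values was *acdh-11*, which in adult worms restrains the desaturase gene *fat-7* and takes part in adaptation to heat. It had 102 and 43.1 CPM in N2 against 123 and 108 CPM in *pry-1(mu38)*. N2 replicate 1 lay just under the mutant libraries and N2 replicate 2 well under them. Its log2 ratio was 0.67 (standard error 0.43, adjusted p = 0.433), from 0.17 without N2 replicate 2 to 1.45 without N2 replicate 1. *acdh-3* had the same order of libraries, with 73.2 and 41.9 CPM in N2 against 100.1 and 88.6 CPM in *pry-1(mu38)*, and a log2 ratio of 0.71 (standard error 0.30, unadjusted p = 0.0663). The values of *acdh-4*, *acdh-9* and *acdh-13* were 0.76, -0.11 and -0.020, and *acdh-4* had at most 84 counts in a library. *acdh-5* and *acdh-8* did not pass the filter on low counts, with from 1 to 8 counts in each library.

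For the later steps, *kat-1*, the mitochondrial 3-ketoacyl-CoA thiolase gene whose loss leads to excess fat together with loss of *tub-1*, had 110 and 73.6 CPM in N2 against 112 and 103.9 CPM in *pry-1(mu38)*. The strains overlapped, and the log2 ratio was 0.24 (standard error 0.24, adjusted p = 0.589). *hacd-1*, a predicted hydroxyacyl-CoA dehydrogenase gene, had 57 and 202 counts in N2 and 236 and 197 counts in *pry-1(mu38)*. Only N2 replicate 1 was low, since N2 replicate 2 and *pry-1(mu38)* replicate 2 had 6.10 and 6.14 CPM. Its log2 ratio of 0.71 (standard error 0.55, adjusted p = 0.496) ran from 0.17 without N2 replicate 1 to 1.68 without N2 replicate 2.

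**Figure D3:**
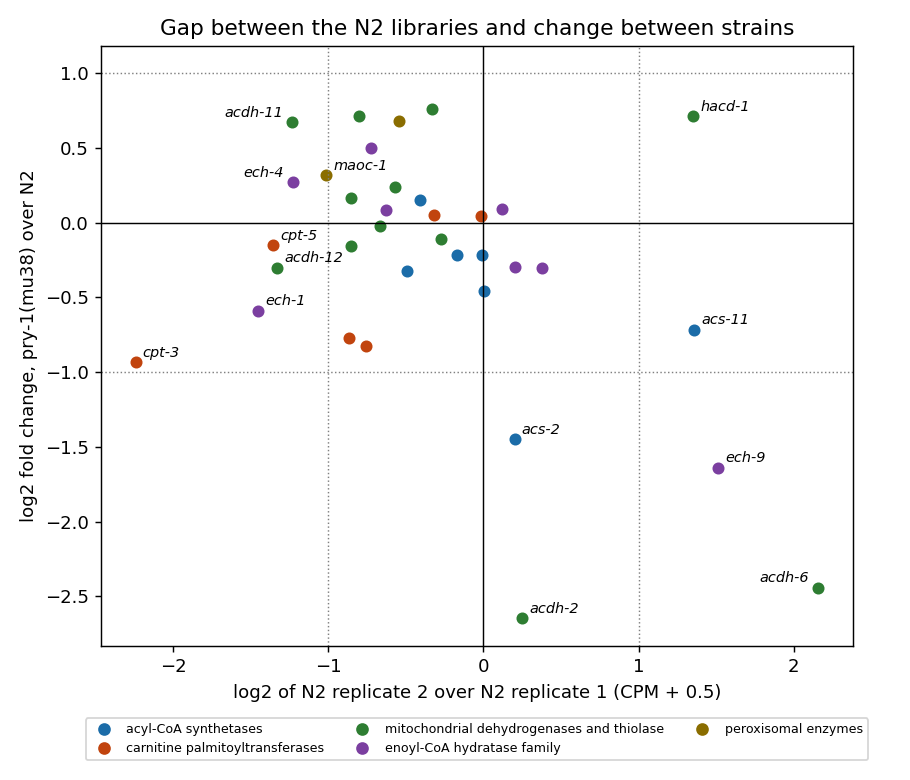
Each point is 1 of the 35 tested genes, coloured by class: the horizontal axis is the log2 ratio of N2 replicate 2 to N2 replicate 1 and the vertical axis the log2 fold change between strains, with dotted lines at 2-fold. Genes beyond a dotted line on either axis are named; 11 lie beyond 2-fold on the horizontal axis, and *acs-2* and *acdh-2* are far down while close to 0 on the horizontal axis.

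The enoyl-CoA hydratase family was divided, with 4 positive and 4 negative log2 fold changes and a median of -0.10. Members of this family work in mitochondria or in peroxisomes, and they were not assigned to either because no protein sequence was used here. The large value was that of *ech-9*, with 365 and 1290 counts in N2 and 178 and 362 counts in *pry-1(mu38)*. In CPM, N2 replicate 1 at 13.4 was close to *pry-1(mu38)* replicate 2 at 11.3, and the other libraries lay far outside, at 39.0 and 5.53. The log2 ratio was -1.64 (standard error 0.63, unadjusted p = 0.0486, adjusted p = 0.345). Leaving out N2 replicate 2 gave -0.67, and leaving out *pry-1(mu38)* replicate 2 gave -2.22.

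The order of libraries in *ech-9* was that of *acdh-6*: highest in N2 replicate 2, then N2 replicate 1, *pry-1(mu38)* replicate 2 and *pry-1(mu38)* replicate 1. The most abundant hydratase per length was *ech-4*, at a mean of 106 CPM per kb, with 171 and 72.6 CPM in N2 against 157 and 136 in *pry-1(mu38)*. Here N2 replicate 2 was the low library and the strains overlapped (log2 fold change 0.27, standard error 0.42). *ech-8* was the steadiest, from 88.6 to 100.02 CPM over the libraries, and *ech-5* had the highest value, 0.50 (standard error 0.28), with 50.9 and 30.6 CPM in N2 against 60.6 and 54.7 in *pry-1(mu38)*. The values of *ech-2*, *ech-3* and *ech-7* were 0.087, -0.30 and -0.30. The row named *ech-1*, at -0.59 (standard error 0.56), could not be paired with a single gene because the annotation gives that name as a synonym of both *ech-1.1* and *ech-1.2*.

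The 2 genes classed here as peroxisomal, *dhs-28* and *maoc-1*, both had positive values, as did 48.4% of all genes tested. Any members of the enoyl-CoA hydratase family that work in peroxisomes are not counted among them. *dhs-28*, the dehydrogenase of the ascaroside pathway, had 364 and 250 CPM in N2 against 541 and 443 CPM in *pry-1(mu38)*. The ranges did not overlap, though the libraries of each strain lay farther apart than the gap between the strains. A log2 ratio of 0.68 was fitted (standard error 0.25, unadjusted p = 0.0425, adjusted p = 0.345), and it stayed positive with each library left out, from 0.43 without N2 replicate 2 to 1.01 without N2 replicate 1. *maoc-1*, the hydratase that acts before it, had 368 and 182 CPM in N2 against 374 and 311 CPM in *pry-1(mu38)*. N2 replicate 1 lay within the mutant range, and the log2 ratio of 0.32 (standard error 0.37, adjusted p = 0.642) was -0.11 without N2 replicate 2. The exons of *dhs-28* overlap those of *gei-15* over 5.39% of their length, and those of *maoc-1* overlap E04F6.6 over 9.88%, both on the opposite strand.

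**Figure D4:**
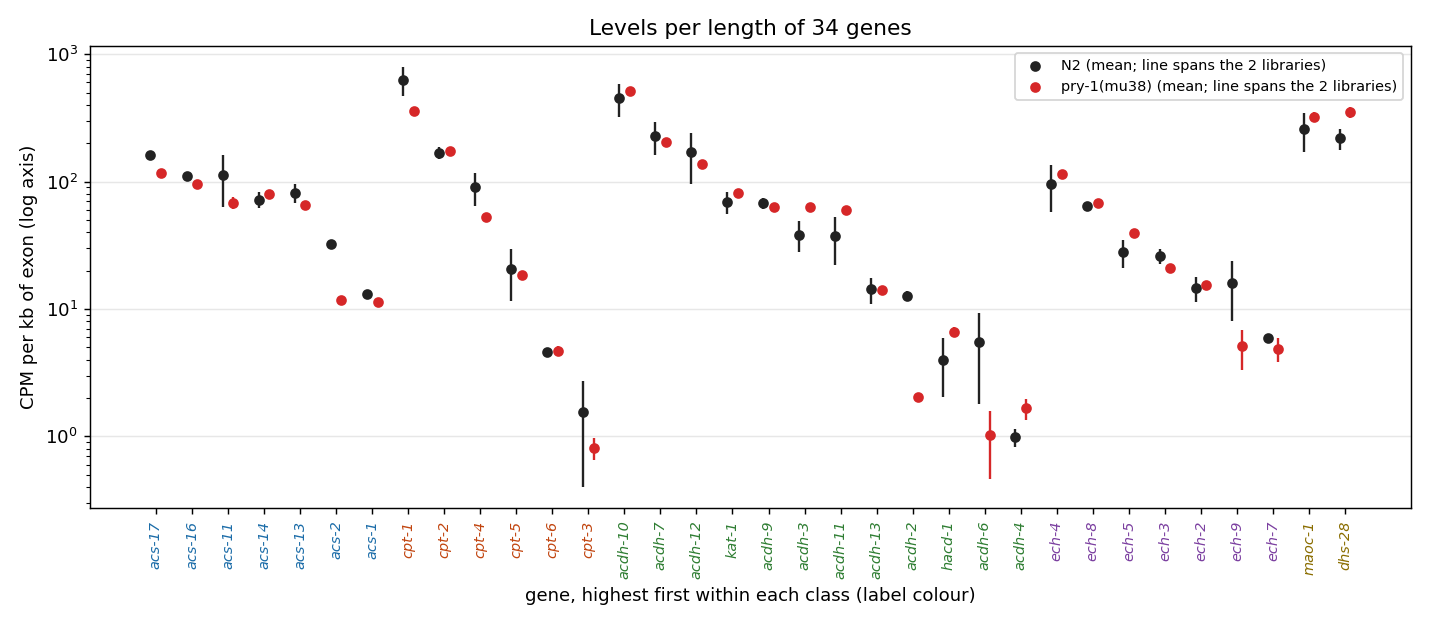
Levels per length, in CPM per kb of annotated exon on a log axis, of the 34 tested genes with a length; points are strain means and lines span the libraries of a strain, black for N2 and red for *pry-1(mu38)*. Means over all libraries run from 1.19 for *cpt-3* to 494 for *cpt-1*, and the classes overlap widely in level, apart from the peroxisomal pair, which lies near the top.

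What many of these genes shared was a wide gap between the N2 libraries. Of the 35 tested genes, 11 showed a gap of at least 2-fold in N2, 31.4% against 13.1% of all genes, whereas 1 gene, *acdh-6*, did so between the *pry-1(mu38)* libraries, 2.86% against 2.62%. The direction of the gap was mostly downward: 25 genes were lower in N2 replicate 2 than in N2 replicate 1, 7 of them by 2-fold or more. Over all genes 2.15% were lower and 10.9% higher by 2-fold or more. The share of all genes lower by any amount was not computed. The 25 include gaps near 0, such as log2 values of -0.010 for *acs-1* and -0.018 for *cpt-6*. *acs-11*, *acdh-6*, *ech-9* and *hacd-1* were higher by 2-fold or more in N2 replicate 2. N2 replicate 2 was the lowest library in 18 genes (51.4% against 40.6% of all genes) and N2 replicate 1 the highest in 17 (48.6% against 20.3%). In 23 genes the log2 gap between the N2 libraries was larger than the fitted difference between strains, which over all genes held for 54%.

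The direction of the median depended on the N2 library used. The median over the tested genes was -0.22 without N2 replicate 2, with 9 positive and 26 negative values, and 0.25 without N2 replicate 1, with 22 positive and 13 negative. In 18 genes (51.4%, against 67.5% of all genes) the sign was the same with each library left out in turn. Without N2 replicate 2 the quasi-likelihood test called 5 of the genes lower, *acdh-2*, *acdh-12*, *acs-2*, *cpt-1* and *cpt-4*, and none higher, where it called 0.955% of all genes lower and 0.477% higher. Without N2 replicate 1 it called none of all genes. At an unadjusted p under 0.05, 14 of the 35 genes were then higher and 8 lower, beside 25.5% and 25.6% of all genes.

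The receptor and coactivator genes that control this pathway showed little difference in transcript level, and the activity of their proteins was not measured. *nhr-49* had 238 and 201 CPM in N2 against 200.3 and 201 CPM in *pry-1(mu38)*, at a log2 ratio of -0.13 (standard error 0.17, adjusted p = 0.685). *mdt-15*, a Mediator subunit that acts with NHR-49, had 495 and 494 CPM in N2 against 569 and 525 in *pry-1(mu38)*, at 0.14 (standard error 0.16). The values of its partner receptors were 0.11 for *nhr-80*, 0.073 for *nhr-13* and 0.020 for *nhr-66*. By qPCR in L1 larvae the paper reported a slight but significant rise of *nhr-80* and no change of *nhr-49*.

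Of 41 further pathway genes listed by name, 32 had a row and 31 were tested, 19 with a positive and 12 with a negative log2 fold change, at a median of 0.069. None was called by the quasi-likelihood test or by DESeq2. At an unadjusted p under 0.05 there were 2 lower genes, the ATP-binding transporter gene *pmp-5* and the peroxin gene *prx-14*, and no higher gene. Of all genes 8.23% and 5.93% were lower and higher. Of the 31 tested genes the strains did not overlap in 10 higher and 4 lower ones, against 29.1% and 28% of all genes. Among the mitochondrial partners were the genes that pass the electrons of the dehydrogenases on. The electron transfer flavoprotein subunit genes F27D4.1 and F23C8.5 had 0.44 (standard error 0.25) and 0.46 (standard error 0.25), with both *pry-1(mu38)* libraries above both N2 libraries. The oxidoreductase *let-721* that takes their electrons had -0.27 (standard error 0.33), with 513 and 272 CPM in N2 against 331 and 319 in *pry-1(mu38)*. The acylcarnitine carrier gene *dif-1*, with 196 and 79.3 CPM in N2 against 164 and 147 in *pry-1(mu38)*, and B0303.3, the thiolase subunit of the trifunctional protein, with 351 and 149 CPM in N2 against 283 and 254 in *pry-1(mu38)*, repeated the order seen in *acdh-12*: the N2 libraries enclosed the mutant ones.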

How the data were processed

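Whole L1 larvae were profiled by RNA-Seq in 2 N2 and 2 *pry-1(mu38)* libraries, grouped and numbered by their titles. The authors deposited raw counts of reads per gene; the paper names trimming, Bowtie 1.0.0 on build ce6 (the series text names BWA), eXpress for abundances, quantile normalization and DESeq, while the counter of the deposited table, its annotation and its strand setting are not given in the sources used here. Summary lines (reads outside genes, from 5.32% to 6.75%; on more than 1 gene, at most 0.620%; aligned at several places, from 8.04% to 11.6%) were left out. Reads at several places count for no gene, so genes with near-identical copies are undercounted.

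Genes were kept by filterByExpr (minimum count 10), scaled by TMM and tested with edgeR 4.0.16's quasi-likelihood test in R 4.3.3. Benjamini-Hochberg adjustment was over 15101 genes, with a threshold of 0.05. Each standard error was derived from that test, as the absolute log2 fold change divided by the square root of the F statistic. DESeq2 1.42.0, the exact test, other scalings and filters, a replicate block and each library left out were alternatives. The tests were tested on simulated data with less spread between libraries than here. Exon lengths come from the WBcel235 annotation for 36 genes; no coordinates are given because the builds differ, and no sequence was used. The members and lists were chosen with earlier results of these data known. Values per library are given for genes named by the study, those with an unadjusted p under 0.05 or called by DESeq2 or the exact test, the largest change and highest level per kb of each class, and single-gene families; any other gene was named after its values were seen. The study named *acdh-6*, *acdh-11*, *acs-2*, *acs-11*, *acs-17*, *cpt-1*, *cpt-4* and *ech-9* on these libraries, so they are not independent evidence.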

Additional observations from a re-analysis of the deposited data

How the results depend on the processing

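The quasi-likelihood test called 1 gene of all and 0 of the fatty acid genes; at an unadjusted p under 0.05 there were 2138 and 6. DESeq2 called 486 and 2, the exact test 284 and 2, and quantile normalization with DESeq2 508 and 2, in each case *acdh-2* and *acs-2*. Without a filter on low counts 0 genes were called, with 876 higher and 1362 lower at an unadjusted p under 0.05. With each library left out, from 0 to 512 genes and from 0 to 5 of the fatty acid genes were called, and the median over the latter ran from -0.22 to 0.25. With a replicate block 2327 and 8 were called, 3 of the latter higher (*acdh-3*, *acdh-11*, *dhs-28*) and 5 lower (*acdh-2*, *acdh-6*, *acs-2*, *cpt-4*, *ech-9*; 4.46% and 11% of all genes); deviations of the libraries numbered 1 correlated at 0.53 across genes, but the libraries share only a number, so the pairing is an assumption. The split at an unadjusted p under 0.05, 895 higher and 1243 lower, was 1053 and 1034 without TMM, 797 and 1652 with DESeq2, 790 and 1625 with the exact test and 1037 and 1417 after quantile normalization. Only *acdh-13* changed sign outside the left-out libraries, at 0.0079 without TMM, 0.016 after quantile normalization and 0.018 with the block.

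With each library left out in turn the value changed sign in 17 genes: *acdh-7* (-0.53 to 0.37), *acdh-9* (-0.25 to 0.064), *acdh-10* (-0.21 to 0.68), *acdh-12* (-0.83 to 0.54), *acdh-13* (-0.33 to 0.39), *acs-11* (-1.21 to 0.11), *acs-14* (-0.042 to 0.41), *cpt-2* (-0.11 to 0.25), *cpt-3* (-1.75 to 1.05), *cpt-5* (-0.69 to 0.72), *cpt-6* (-0.064 to 0.17), *ech-1* (-1.18 to 0.43), *ech-2* (-0.21 to 0.48), *ech-4* (-0.22 to 1.04), *ech-7* (-0.62 to 0.00032), *kat-1* (-0.026 to 0.59) and *maoc-1* (-0.11 to 0.94). The causes were not tested. At most 84 counts in a library were behind the value of *acdh-4*.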

Other observations

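The transporter genes of the *pmp* family and the peroxin genes were split. The 5 *pmp* genes encode ATP-binding transporters, and whether each works in peroxisomes was not checked here. Of these, *pmp-2* and *pmp-4* had positive log2 fold changes, 0.56 (standard error 0.27) and 0.61 (standard error 0.32). In both genes both *pry-1(mu38)* libraries were above both N2 libraries, which held for 29.1% of all genes tested. In *pmp-3* and *pmp-5* both *pry-1(mu38)* libraries were below both N2 libraries, which held for 28% of all genes tested. *pmp-5* had 5.01 and 7.19 CPM in N2 against 1.96 and 2.81 CPM in *pry-1(mu38)*, at -1.36 (standard error 0.36, unadjusted p = 0.0139, adjusted p = 0.345 from the quasi-likelihood test), from -1.62 to -1.08 with each library left out. *pmp-3*, the reference gene of the study's qPCR assays, had 103 and 107 CPM in N2 against 96.3 and 95.2 in *pry-1(mu38)*, at -0.13 (standard error 0.15). *pmp-1* was higher in N2 replicate 2, at 125 CPM, than in the other libraries, at 43.0 to 58.1. Of the 10 peroxin genes, which encode the import and assembly machinery, *prx-14* had the lowest log2 fold change, -0.51 (standard error 0.19, unadjusted p = 0.0420), and *prx-1* the highest, 0.47 (standard error 0.38).

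Of the 5 tested acyl-CoA binding protein genes, whose products bind activated fatty acids, 3 had positive and 2 negative values. *acbp-1* had 63.0 and 63.2 CPM in N2 against 77.8 and 73.4 CPM in *pry-1(mu38)*, at a log2 fold change of 0.26 (standard error 0.15). *acbp-3* stood at 0.22 and *acbp-5* at 0.19, while *acbp-6* and *maa-1* had negative values, -0.23 and -0.11, with overlapping strains. *acbp-4* did not pass the filter on low counts.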
